A study of Mus musculus with 8 samples.

Results

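The 10 genes described here encode receptors that recognise bacterial products, the adaptor that carries their signal, and the receptor that exports antibodies onto bacteria. They were taken as a list of symbols (Cd14, Ly96, Tlr2, Tlr4, Tlr5, Myd88, Nod1, Nod2, Nlrp6 and Pigr). All 10 were among the 24013 symbols of the expression table, and 8 of them were among the 11190 genes that passed a filter of at least 1 FPKM in at least 2 libraries. FPKM is the number of fragments scaled to transcript length and library size. Tlr4 and Nod2 did not pass the filter. The list names Cd14 as its member that rose in the CD24+ gate after irradiation, so the values of Cd14 in that comparison are a description and no independent evidence. Its values against the same non-irradiated libraries in another comparison are likewise no independent evidence. Pigr is an antibody transporter and not itself a sensor of bacteria.

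RNA was sequenced from sorted intestinal epithelial cells of Lyz1CreER; R26R-tdT mice, of mixed C57/BL6 and 129 background and 8 to 14 weeks old. Every mouse, the non-irradiated ones included, carried both alleles and received 1 dose of 10 mg tamoxifen. The Lyz1 driver, a lysozyme gene of Paneth cells, switches on the red protein tdTomato (tdT), which stays on in the descendants of a labelled cell. Viable EpCAM-positive, CD45-negative, tdT-positive cells were divided by CD24, a surface protein that Paneth cells carry. There were 2 libraries of tdT+CD24+ cells from non-irradiated mice (the non-irradiated CD24+ group), 3 of tdT+CD24+ cells taken 5 days after radiation (irradiated CD24+) and 3 of tdT+CD24- cells taken at the same time (irradiated CD24-). The labels call the CD24+ cells Paneth cells and the CD24- cells derivatives. No CD24- group without irradiation was analysed here.

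Gut epithelial cells meet bacteria at their surface and read them through 2 sets of receptors. Toll-like receptors sit in membranes: Tlr4, with its partners Cd14 and Ly96 (MD-2), recognises lipopolysaccharide, Tlr2 recognises bacterial lipoproteins and Tlr5 recognises flagellin, and all 3 signal through the adaptor Myd88 toward NF-kB. Nod1 and Nod2 detect fragments of peptidoglycan inside the cell, Nlrp6 is a cytosolic sensor linked to inflammasomes, and Pigr carries polymeric immunoglobulin A across the epithelium into the lumen. Paneth cells are known for Nod2, and Tlr5 has been described in mouse Paneth cells.

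The libraries differed widely outside these genes. The 12 Paneth cell markers summed to 478357 to 621862 FPKM in non-irradiated CD24+, 419396 to 476491 in irradiated CD24+ and 4769 to 34276 in irradiated CD24- libraries. The 12 absorptive enterocyte markers ran the other way, with sums of 524 to 2580, 849 to 1417 and 18389 to 40519 FPKM. Cd24a fell with the gate, to 0.111 times its irradiated CD24+ mean. Non-irradiated CD24+ replicate 1 stood apart from the other libraries: 95.0% of tested genes, and 9 of the 10 genes described here, were lower in it than in replicate 2, with Tlr5 the exception. Depth, approximated from the smallest steps between low values, was 34.8 to 44.4 per library in units of 1e6 fragments. In bulk samples fewer cells of a type and less RNA per cell cannot be told apart.

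Levels spanned more than 3 orders of magnitude, and FPKM is scaled by length, so genes may be set side by side. Pigr led in every group, with means of 400 ± 156 FPKM (SD, n = 2) in non-irradiated CD24+, 489 ± 66.3 (SD, n = 3) in irradiated CD24+ and 1543 ± 555 (SD, n = 3) in irradiated CD24- libraries. Nlrp6 and Myd88 followed in that order in all 3 groups. Below them the order depended on the group. In non-irradiated CD24+ libraries Nod1, Cd14 and Tlr5 were neighbours with overlapping ranges, as were Myd88 and Ly96, and Nod2 and Tlr4. In irradiated CD24+ libraries Cd14 had moved up beside Ly96, with which its range overlapped, and no other neighbours overlapped. In irradiated CD24- libraries the overlapping neighbours were Nod1 and Tlr2, Tlr2 and Nod2, and Tlr5 and Tlr4.

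**Figure D1:**
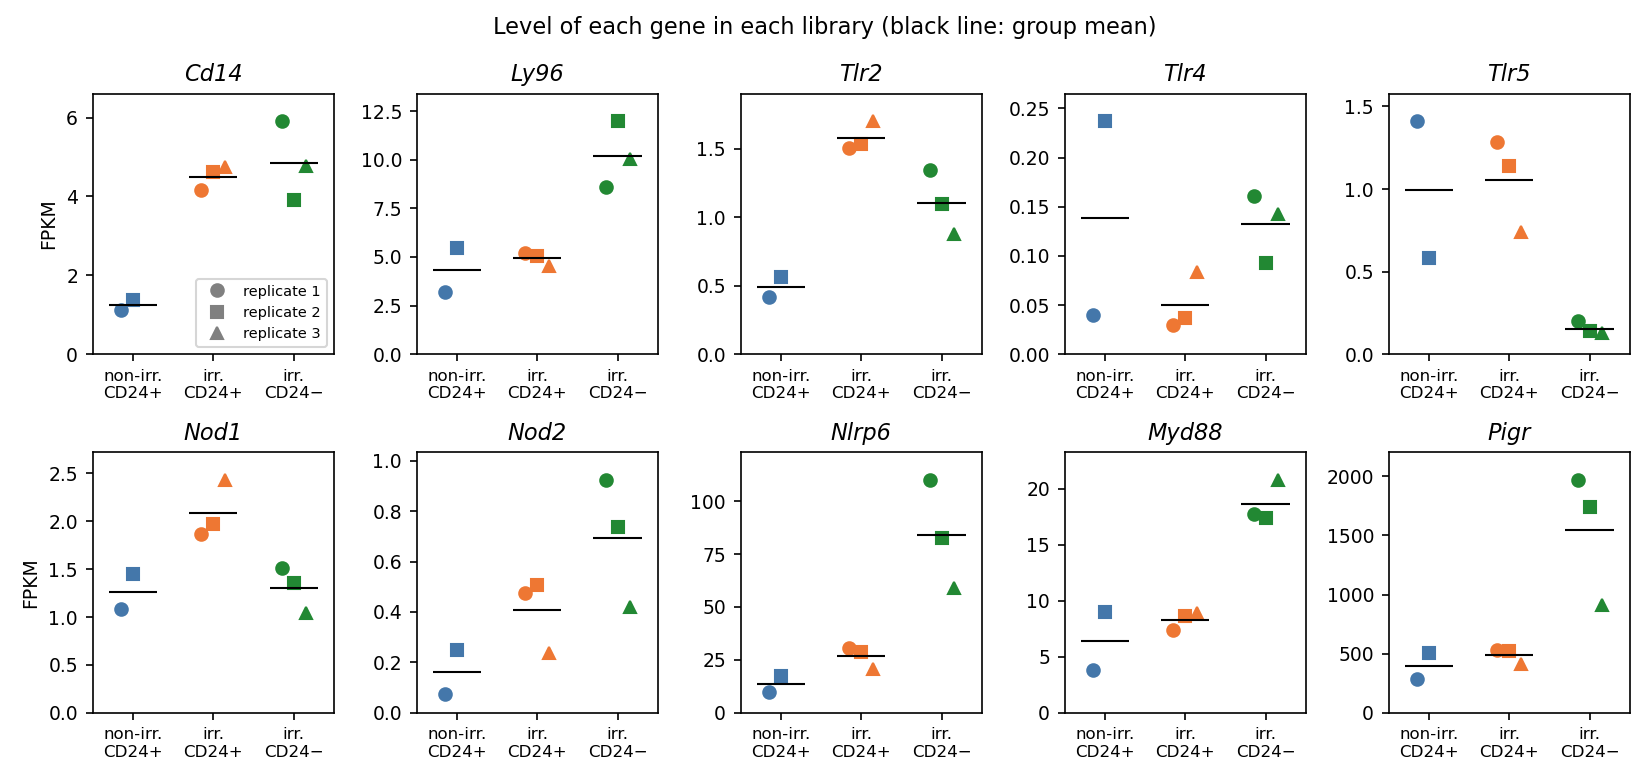
FPKM of each of the 10 genes (vertical axes, each from 0, on its own scale) in every library of the 3 groups, with the replicate number as the symbol and the group mean as a black line. Cd14, Tlr2 and Nlrp6 separate the non-irradiated from both irradiated groups, and Ly96, Nlrp6, Myd88 and Pigr are highest and Tlr5 lowest in irradiated CD24- libraries.

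The comparison of irradiated with non-irradiated CD24+ cells asks what radiation changed inside the Paneth cell gate. None of the 8 tested genes passed an adjusted p under 0.05, nor did any other gene (percent called 0%), with limma on log2(FPKM + 1). At an unadjusted p under 0.05 there were 1424 genes, and 4 of the 8 were among the higher ones (Cd14, Tlr2, Nlrp6 and Nod1), against 12.2% of all tested genes. The same 4 had groups that did not overlap, against 34.2% of all genes on the higher side. These shares belong to a comparison in which the median gene was itself 0.32 higher on the log2 scale in irradiated libraries. Cd14 is in both counts although the list names it as risen here. Tlr2 is in both as well, and it passed the filter only through irradiated libraries, where it is high. The counts are therefore a description and no independent evidence.

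Cd14, the co-receptor that hands lipopolysaccharide to the Tlr4 complex, read 1.13 and 1.38 FPKM in the non-irradiated CD24+ libraries. The irradiated CD24+ libraries held 4.15, 4.62 and 4.74 FPKM. The irradiated CD24- libraries held 5.90, 3.90 and 4.78 FPKM. Both irradiated groups therefore lay above every non-irradiated library and overlapped each other, and the 3 irradiated CD24+ libraries were close together. These values rest on about 82 to 96, 258 to 325 and 223 to 410 fragments. The ratio of group means, irradiated to non-irradiated CD24+, was 3.59. On the log2(FPKM + 1) scale, which understates changes near 1 FPKM, Cd14 was 1.29 ± 0.20 (SE) higher, or 0.97 above the median gene, and the adjusted p was 0.103. That was the fourth smallest p of the 11190 genes. Over 16 alternative settings the difference stayed between 1.02 and 1.77, and the adjusted p ran from 0.00926 to 0.592. The lowest came with the replicate number as a block, although non-irradiated libraries share only a number with the others. Leaving out either non-irradiated library left a lone one, assumed to vary like the other groups.

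Tlr2, the lipoprotein receptor, read 0.418 and 0.562 FPKM in the non-irradiated CD24+ libraries. Irradiated CD24+ libraries held 1.50, 1.53 and 1.70 FPKM, and irradiated CD24- libraries 1.34, 1.10 and 0.878 FPKM. The 3 groups did not overlap, with irradiated CD24+ highest and non-irradiated CD24+ lowest. Within the CD24+ gate the ratio of means was 3.22. The fitted difference was 0.79 ± 0.17 (SE) on the log2(FPKM + 1) scale, 0.47 above the median gene, with an adjusted p of 0.348. Over 16 alternatives the adjusted p reached 0.616. Its lowest value came without non-irradiated CD24+ replicate 2, which left a lone non-irradiated library. Tlr2 was thus measured as higher in all 3 irradiated CD24+ libraries without passing the test over all genes.

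The remaining genes were less separate in this comparison. Nlrp6 read 9.86 and 17.5 FPKM before and 30.7, 28.9 and 20.7 FPKM after irradiation, a fitted difference of 0.95 ± 0.32 (SE; adjusted p = 0.348). Nod1 read 1.08 and 1.44 FPKM, then 1.87, 1.97 and 2.43 FPKM, a difference of 0.45 ± 0.18 (SE; adjusted p = 0.348). Both groups of values stood apart without overlap. The difference of Nod1 was 0.13 above that of the median gene on the log2(FPKM + 1) scale, which understates changes near 1 FPKM. Its ratio of means was 1.66. Myd88 differed by 0.42 ± 0.28 (SE), Pigr by 0.34 ± 0.43, Ly96 by 0.19 ± 0.23 and Tlr5 by 0.06 ± 0.21, with adjusted p between 0.364 and 0.822. Their groups overlapped. For Myd88, Pigr and Ly96 the sign turned negative without non-irradiated CD24+ replicate 1 (-0.11, -0.069 and -0.13). For Tlr5 it turned without replicate 2 (-0.24) and without irradiated CD24+ replicate 1 (-0.017).

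Cd14 is also abundant in monocytes, macrophages and neutrophils, so their markers were read in the same libraries. Of the 16 listed, 15 were in the table and 1 passed the filter. Their sum was 1.65 to 3.77 FPKM in non-irradiated CD24+, 0.951 to 1.54 in irradiated CD24+ and 3.81 to 5.52 in irradiated CD24- libraries. In irradiated CD24+ cells, where Cd14 was 4.15 to 4.74 FPKM, all 15 were under 1 FPKM, and Emr1, Cx3cr1, S100a8 and S100a9 were listed at 0. The pan-leukocyte gene Ptprc (CD45) was at most 0.148 FPKM there. Some summed markers of epithelial cell types did not overlap between the CD24+ groups: tuft cell markers were 26.3 to 34.4 FPKM before and 7.55 to 19.8 after irradiation, enteroendocrine markers 221 to 265 and 374 to 1464, stem cell markers 551 to 842 and 991 to 1245, and Paneth cell markers 478357 to 621862 and 419396 to 476491. Those of goblet cells, enterocytes and cycling cells overlapped. Their part in the level of Cd14 or Tlr2 was not tested.

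The comparison of irradiated CD24- with irradiated CD24+ cells asks how labelled cells outside the Paneth cell gate differ from those inside it. Nlrp6, Pigr, Myd88 and Ly96 were higher in CD24- cells, Tlr5 and Nod1 were lower, and Cd14 and Tlr2 did not pass. That is 4 of 8 higher, against 48.6% of all tested genes, and 2 of 8 lower, against 7.27%. Of those lower, Tlr5 passed the filter only through CD24+ libraries, where it is high. The number higher is thus near the background, since 5439 genes were called higher and 813 lower and the median gene was 0.51 higher. The balance of calls also depended on scaling: 87.0% of called genes were higher with FPKM as deposited, 57.1% (3625 higher, 2725 lower) with median-of-ratios scaling and 45.3% (2821 higher, 3408 lower) with quantile normalization. Differences are therefore also given relative to the median gene. The share of all genes without overlap is not given for this comparison, so a lack of overlap below only describes the libraries.

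**Figure D2:**
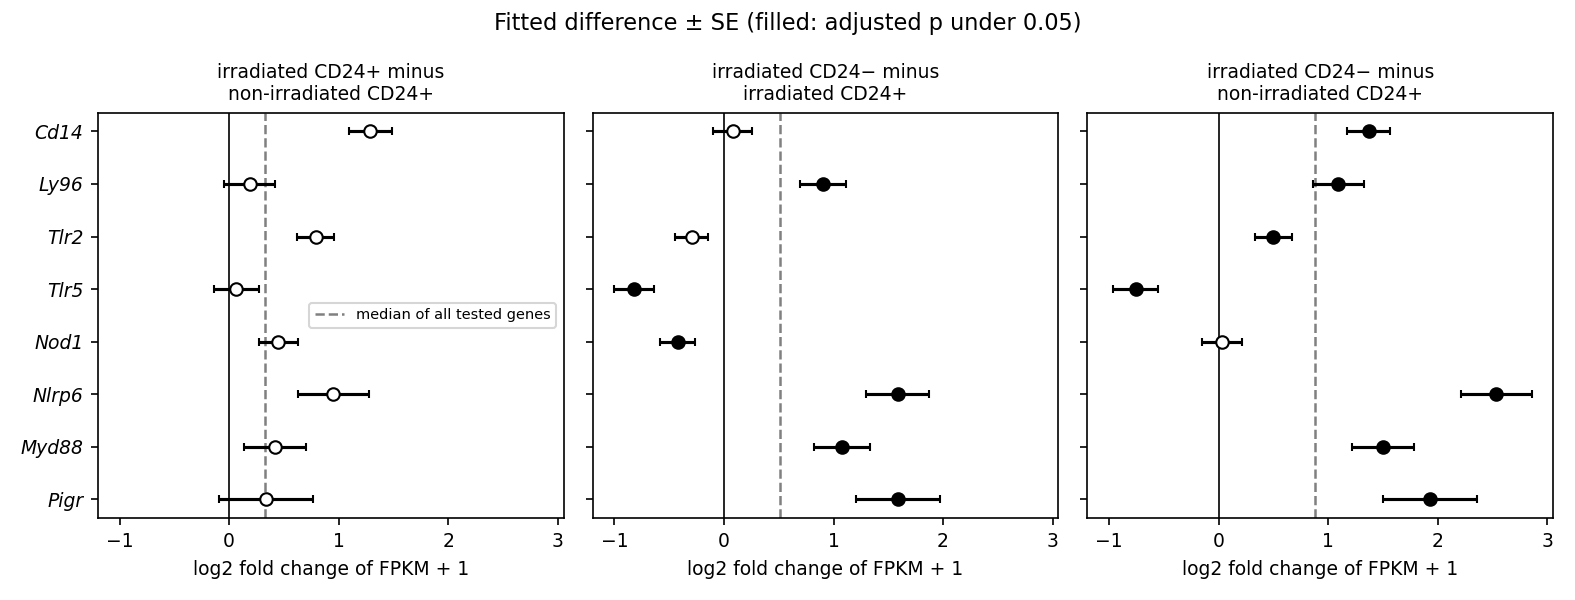
Fitted log2 fold change of FPKM + 1 (horizontal axes) with its SE for the 8 tested genes in the 3 comparisons; filled points passed an adjusted p under 0.05, and the dashed line marks the median of all 11190 genes. No point is filled in the first comparison, 6 are in the second and 7 in the third, and only Tlr5 lies far left of the dashed line with a filled point in both of the last 2.

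Nlrp6, Pigr and Myd88 were higher in CD24- cells, and Tlr5 was lower. The sequences upstream of these 4 genes, and of Tlr2, were read to show what lies ahead of genes that went opposite ways between the gates. RefSeq (GRCm38.p6) gave the 250 bases before the start for 7 of the 10 genes (Pigr, Tlr5, Tlr2, Nod1, Nod2, Nlrp6 and Myd88). They are written 5′ to 3′ on the gene's strand, ending at the base before the start. The windows lie at chr1:130826434-130826683, plus strand, for Pigr, chr7:140920652-140920901, plus strand, for Nlrp6, chr9:119340019-119340268, minus strand, for Myd88, chr1:182954538-182954787, plus strand, for Tlr5, and chr3:83841609-83841858, minus strand, for Tlr2. Capitals mark matches on either strand to 6 short motifs: NF-kB-like GGGNNTTCC, interferon response-like GAAANNGAA, the E-box CACGTG, the GC box GGGCGG, AP-1 TGANTCA and the TATA box TATAAA.
Pigr: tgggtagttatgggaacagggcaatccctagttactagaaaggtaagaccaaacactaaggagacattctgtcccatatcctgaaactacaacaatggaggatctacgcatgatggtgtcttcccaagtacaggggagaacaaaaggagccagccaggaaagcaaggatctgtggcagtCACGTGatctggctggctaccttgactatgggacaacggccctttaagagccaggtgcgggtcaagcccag
Nlrp6: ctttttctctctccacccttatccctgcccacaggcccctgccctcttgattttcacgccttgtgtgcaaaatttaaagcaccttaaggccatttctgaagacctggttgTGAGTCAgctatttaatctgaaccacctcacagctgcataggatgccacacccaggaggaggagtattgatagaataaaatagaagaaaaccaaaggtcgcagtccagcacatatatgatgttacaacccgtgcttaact
Myd88: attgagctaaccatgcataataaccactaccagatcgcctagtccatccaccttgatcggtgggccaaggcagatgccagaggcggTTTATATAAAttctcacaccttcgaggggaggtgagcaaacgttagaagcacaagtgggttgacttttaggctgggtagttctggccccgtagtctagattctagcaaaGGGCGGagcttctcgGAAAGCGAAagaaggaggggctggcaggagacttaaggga
Tlr5: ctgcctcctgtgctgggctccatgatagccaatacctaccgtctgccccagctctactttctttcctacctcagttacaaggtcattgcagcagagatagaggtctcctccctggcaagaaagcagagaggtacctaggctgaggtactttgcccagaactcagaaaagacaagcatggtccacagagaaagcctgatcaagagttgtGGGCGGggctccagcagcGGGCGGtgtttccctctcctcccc
Tlr2: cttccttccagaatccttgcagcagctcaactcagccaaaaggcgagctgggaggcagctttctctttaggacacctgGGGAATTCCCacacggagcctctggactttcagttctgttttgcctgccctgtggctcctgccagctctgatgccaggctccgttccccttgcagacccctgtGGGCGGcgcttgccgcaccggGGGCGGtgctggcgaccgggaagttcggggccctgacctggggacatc

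Of the 6 motifs, the GC box alone is shared among the 5 windows. Myd88, which was higher in CD24- cells, holds it, as do Tlr5, which was lower, and Tlr2. Pigr holds an E-box whose first base is 71 bases before the start, and 6.02% of 32851 mouse promoter windows of this length hold one. Nlrp6 holds an AP-1 match at 140 bases (6.75% of windows). Myd88 holds the interferon response-like match at 40 bases (7.13%), a GC box at 55 bases and overlapping TATA matches on the 2 strands at 164 and 160 bases (12.4%). Tlr5 has GC boxes at 42 and 24 bases, and Tlr2 at 69 and 48 bases, a motif found in 32.7% of windows. Tlr2 also holds the NF-kB-like motif, at 172 and 171 bases on opposite strands of the same palindrome, and Nod2, not printed, holds one at 219 bases (4.98% of windows). Nod2 also has GC boxes at 74, 50 and 17 bases. Nod1 has 2 listed starts and a GC box at 54 bases before 1 of them. These matches describe letters only. No binding was measured.

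Pigr, the antibody transporter whose window is printed above, read 528, 527 and 413 FPKM in irradiated CD24+ libraries. In irradiated CD24- libraries it read 1970, 1744 and 915 FPKM, so every CD24- library was above every CD24+ library. The difference was 1.59 ± 0.38 (SE) on the log2 scale, 1.08 above the median gene (adjusted p = 0.00451). It kept its call in all 18 alternatives, where it ran from 1.02 to 2.86. Nlrp6, the cytosolic sensor, read 30.7, 28.9 and 20.7 FPKM in CD24+ and 110, 82.5 and 58.9 FPKM in CD24- libraries. Again the groups did not overlap, and Nlrp6 differed by 1.58 ± 0.29 (SE), 1.07 above the median gene (adjusted p = 0.000821). With quantile normalization the difference fell to 0.46 and did not pass (adjusted p = 0.154, against 1.48e-06 to 0.154 over all alternatives).

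Within the CD24- group, Pigr and Nlrp6 did not follow the sum of the enterocyte markers. That sum is weighted to its most abundant genes. Sis (359, 340 and 275 FPKM in replicates 1 to 3) fell in the order of Pigr and Nlrp6, and Lct (131, 147 and 89.6 FPKM) was lowest in replicate 3. The other enterocyte markers rose from replicate 1 to replicate 3. Replicate 1 had the highest Pigr (1970 FPKM) and Nlrp6 (110 FPKM) and the lowest enterocyte sum (18389 FPKM). Replicate 3 had the lowest Pigr (915 FPKM) and Nlrp6 (58.9 FPKM) and the highest enterocyte sum (40519 FPKM). Goblet cell markers, at 9461, 8963 and 5217 FPKM in replicates 1 to 3, were likewise highest in replicate 1 and lowest in replicate 3. So were the summed markers of Paneth cells, stem cells and cycling cells, so this order was not particular to goblet cells. The sums of T cells, of B and plasma cells, and of monocytes, macrophages and neutrophils had the same order. Each of these was mostly 1 gene: Gzma (8.74, 3.51 and 1.25 FPKM), Sdc1 (39.4, 34.5 and 33.9 FPKM) and Itgam (2.91, 2.70 and 2.39 FPKM). They are no measure of those cells. These are 3 libraries, and no relation was tested.

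Myd88, the adaptor shared by Tlr2, Tlr4 and Tlr5, read 7.37, 8.66 and 8.92 FPKM in irradiated CD24+ and 17.8, 17.4 and 20.8 FPKM in irradiated CD24- libraries. The CD24- values were close together and all above the CD24+ values, with a difference of 1.08 ± 0.25 (SE), 0.57 above the median gene (adjusted p = 0.00383). Ly96, the lipopolysaccharide-binding partner of Tlr4, read 5.23, 5.06 and 4.52 FPKM and then 8.57, 12.0 and 10.0 FPKM. Its groups did not overlap either, and it differed by 0.91 ± 0.21 (SE), 0.40 above the median gene (adjusted p = 0.00333). Both lost the call with quantile normalization (0.31, adjusted p = 0.0890 for Myd88; 0.29, adjusted p = 0.122 for Ly96), the highest p of their 18 alternatives. The lowest were 4.55e-06 and 2.50e-06.

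Tlr5, the flagellin receptor, moved the other way. It was listed at 1.29, 1.14 and 0.740 FPKM in irradiated CD24+ and at 0.201, 0.139 and 0.127 FPKM in irradiated CD24- libraries, from about 116 to 187 and 18 to 33 fragments. The CD24- mean was 0.148 times the CD24+ mean, with no overlap. The fitted difference, pulled toward 0 at these levels, was -0.82 ± 0.18 (SE; adjusted p = 0.00291), which is -1.33 after subtracting the median gene. It was lower and passed in all 17 alternatives (-2.16 to -0.47). Tlr5 passed the filter on low values only through CD24+ libraries, so it was tested because it is high in that gate. In the limma fit with no filter the adjusted p was 0.00796. The non-irradiated CD24+ libraries, at 1.41 and 0.582 FPKM, spanned the irradiated CD24+ values.

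Nod1, which senses peptidoglycan as Nod2 does and was the one of the pair to pass the filter, fell by a small amount with FPKM as deposited. Irradiated CD24- libraries read 1.52, 1.35 and 1.05 FPKM, all below the 1.87, 1.97 and 2.43 FPKM of irradiated CD24+ libraries. The difference was -0.42 ± 0.16 (SE; adjusted p = 0.0441), which is -0.93 after subtracting the median gene. With the replicate number as a block, in a pairing of CD24+ and CD24- libraries, the adjusted p was 0.0565, and over 17 alternatives it ran from 0.00101 to 0.173. Leaving out any of the 3 irradiated CD24+ libraries, or CD24- replicate 2 or 3, ended the call, and rescaling each library to 1e6 (TPM) turned the sign (0.38).

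Cd14 and Tlr2 did not pass between the gates. Cd14 differed by 0.08 ± 0.18 (SE; adjusted p = 0.727), or -0.43 relative to the median gene. Its sign depended on scaling, from -0.39 with quantile normalization to 1.14 with TPM, while its difference from the median gene stayed negative under all 5 scalings. Tlr2 differed by -0.30 ± 0.15 (SE; adjusted p = 0.117), or -0.81 relative to the median gene, and by 0.44 with TPM. With median-of-ratios scaling all 8 genes passed, 4 higher and 4 lower.

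**Figure D3:**
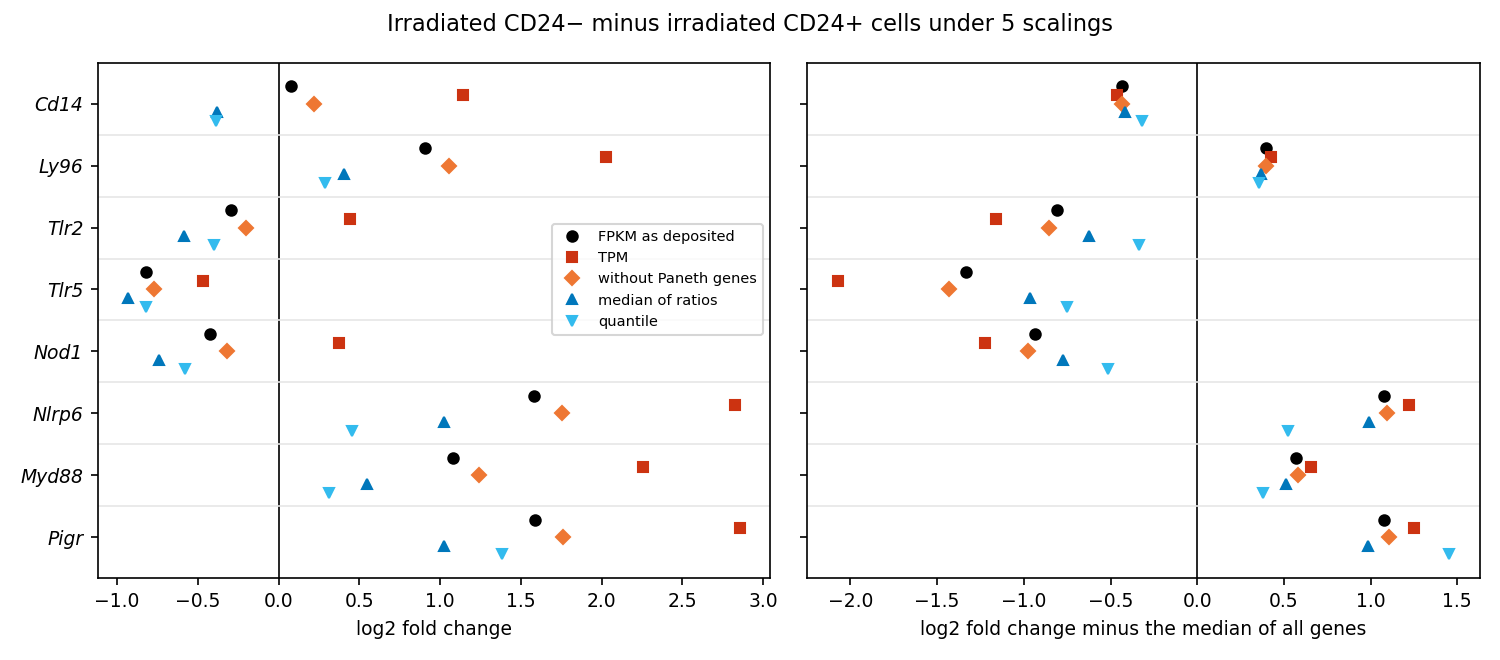
Log2 fold change between the irradiated gates (left) and the same minus the median of all genes (right) for the 8 tested genes, under FPKM as deposited and 4 other scalings (symbols). Scaling moves every gene, and the signs of Cd14, Tlr2 and Nod1 on the left, whereas on the right Ly96, Nlrp6, Myd88 and Pigr stay above 0 and Cd14, Tlr2, Tlr5 and Nod1 below 0.

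The same gate difference carried the cell type markers. All 12 absorptive enterocyte markers were higher and 11 of 12 Paneth cell markers lower in irradiated CD24- cells, with median log2 differences of 4.62 and -5.19, and all 6 stem cell markers and 6 of 7 tested tuft cell markers were lower. Of 10 goblet cell markers 4 were higher and 2 lower, against 48.6% and 7.27% of all tested genes. As background, enterocytes are known to express Pigr, Nlrp6 and Myd88. The part of these cell types in the differences of the 10 genes was not tested.

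**Figure D4:**
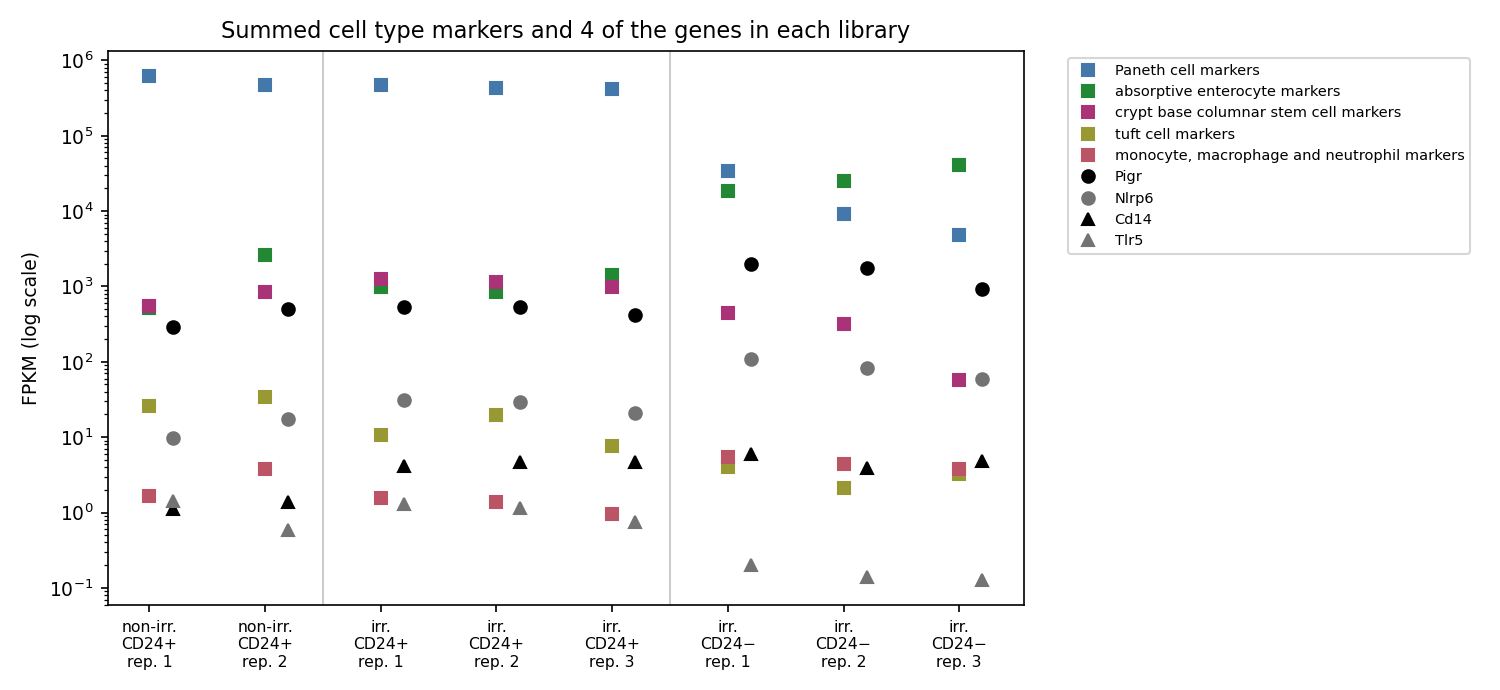
Summed FPKM of 5 cell type marker lists (squares) and FPKM of Pigr, Nlrp6, Cd14 and Tlr5 (circles and triangles) in each of the 8 libraries, on a log axis. Paneth cell markers drop and enterocyte markers climb in the 3 irradiated CD24- libraries, where Pigr and Nlrp6 are high and Tlr5 low, while Cd14 is near 1 FPKM in the 2 non-irradiated libraries and near 4 to 6 FPKM in the other 6.

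Tlr4 and Nod2 were under the filter, and Tlr4 was close to the limit of measurement. Tlr4, the lipopolysaccharide receptor itself, read 0.0401 and 0.237 FPKM in non-irradiated CD24+, 0.0296, 0.0366 and 0.0836 FPKM in irradiated CD24+ and 0.161, 0.0929 and 0.142 FPKM in irradiated CD24- libraries. That is about 5 to 41 fragments a library, and Cd14 and Ly96 were thus read at many times the level of their receptor. The 2 irradiated gates did not overlap in Tlr4, and the exact two-sided permutation test gave p = 0.1, the smallest it can give for 3 against 3. Nod2, the muramyl dipeptide sensor, was listed at 0.0759 and 0.249, at 0.475, 0.508 and 0.235, and at 0.924, 0.737 and 0.418 FPKM in the same order. It rested on about 16 to 50, 45 to 103 and 83 to 185 fragments. Irradiated CD24- libraries were all above the non-irradiated ones (exact two-sided permutation p = 0.2) and overlapped irradiated CD24+ libraries (p = 0.3, exact). The exact test of 2 against 3 libraries cannot go below 0.1, and the filter on low values left both genes out of the fit. In the limma fit with no filter, Nod2 was 0.53 higher in irradiated CD24- than in non-irradiated CD24+ cells (adjusted p = 0.0226), and Tlr4 did not pass there (adjusted p = 0.99). Between the irradiated gates that fit gave adjusted p = 0.175 for Nod2 and 0.23 for Tlr4.

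In irradiated CD24- against non-irradiated CD24+ cells, gate and irradiation differ together and cannot be told apart, and both groups also serve in the comparisons above. Here 6 of 8 genes were higher, against 65.7% of all genes, and 1 lower, against 4.99%. Those higher include Cd14, and also Tlr2, which passed the filter only through irradiated libraries. Tlr5, the lower one, passed it only through CD24+ libraries. The median gene was 0.88 higher. Of called genes, 92.9% were higher with FPKM as deposited, 57.4% (3316 higher, 2465 lower) with median-of-ratios scaling and 48.4% (2729 higher, 2905 lower) with quantile normalization.

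On the log2(FPKM + 1) scale Nlrp6 had the largest difference of the 8 genes, 2.53 ± 0.32 (SE; adjusted p = 6.86e-05), followed by Pigr with 1.93 ± 0.43, Myd88 with 1.50 ± 0.28, Cd14 with 1.37 ± 0.20 and Ly96 with 1.09 ± 0.23 (adjusted p between 0.00014 and 0.00217). Relative to the median gene these were 1.66, 1.05, 0.62, 0.49 and 0.22. That scale understates changes near 1 FPKM, and ratios of group means gave another order. They were 6.12 for Nlrp6, 3.88 for Cd14, 3.86 for Pigr, 2.91 for Myd88, 2.35 for Ly96 and 0.156 for Tlr5. Cd14 passed in every alternative that kept at least 2 libraries in each group, with 0.64 the lowest difference over 16. The list names Cd14 as risen over these same non-irradiated libraries, so its call here is no independent evidence. Tlr2 differed by 0.50 ± 0.17 (SE; adjusted p = 0.0214), which was 0.38 below the median gene on the log2(FPKM + 1) scale. Its ratio of means was 2.26, and the scale understates changes at its level. Tlr2 lost the call in 8 of 16 alternatives, among them without irradiated CD24- replicate 1 (adjusted p = 0.0674) or 2 (0.0524), in a range of 6.01e-05 to 0.713. Tlr5 was lower, by -0.76 ± 0.21 (SE; adjusted p = 0.00695) and lost the call without non-irradiated CD24+ replicate 1 (adjusted p = 0.0947, in a range of 0.00181 to 0.105). Nod1 did not pass (0.03 ± 0.18 SE; adjusted p = 0.904). Ly96 was 0.21 higher with median-of-ratios scaling and did not pass (adjusted p = 0.333, in a range of 1.58e-06 to 0.517).

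The other genes of the pathway were taken as 100 symbols in 9 roles, of which 99 were in the table and 68 tested. In the CD24+ gate after irradiation none passed, 12 of 68 were higher at an unadjusted p under 0.05 (12.2% of all tested genes were), and their median difference of 0.35 was close to the 0.32 of all genes. Between the irradiated gates 46 of 68 were higher in CD24- cells and 3 lower, with a median of 1.01 against 0.51 for all genes, of which 48.6% were higher and 7.27% lower. With median-of-ratios scaling 35 were higher and 6 lower, and with quantile normalization 30 and 9. Against non-irradiated CD24+ cells 55 were higher and 2 lower, with a median of 1.27 against 0.88 for all genes, of which 65.7% were higher and 4.99% lower. The counts by role below are between the irradiated gates and stand beside the same 48.6% higher and 7.27% lower. Some genes passed the filter only through the group where they are high, so their calls are partly set by their being tested. Nlrp1b, Nlrp9b, Nfkbie and Saa1 reached 1 FPKM only in CD24- libraries. Cd36 needed CD24- libraries to pass, and Irak3 needed CD24+ libraries.

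Among receptors, Toll-like receptors other than those above were mostly under the filter, which 2 of 10 passed. Tlr3, the receptor for double-stranded RNA, was 1.49 ± 0.23 (SE; adjusted p = 0.000285) and Tlr1, a partner of Tlr2, 0.92 ± 0.17 (SE; adjusted p = 0.000928) higher in irradiated CD24- than irradiated CD24+ cells. Both passed under all 5 scalings. Of 4 tested chaperones and co-receptors 1 passed, Cd36, a fatty acid transporter that also assists Tlr2, at 3.21 ± 0.23 (SE; adjusted p = 5.58e-06). Its levels were 0.965, 0.817 and 0.653 FPKM in irradiated CD24+ and 16.5, 17.7 and 13.3 FPKM in irradiated CD24- libraries. With quantile normalization the other 3 of this role passed as lower.

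Downstream of the receptors, 5 of 12 tested adaptors and kinases were higher and 2 lower in irradiated CD24- cells, with a median of 0.43, below that of all genes, and 4 were higher and 3 lower with median-of-ratios scaling. Irak2, a kinase that works with Myd88, was 2.16 ± 0.21 (SE) higher and Ticam1 (TRIF), the adaptor of Tlr3, 2.03 ± 0.22 higher (adjusted p = 1.42e-05 and 2.59e-05). Irak3 (IRAK-M), an inhibitory member of the same kinase family, was lower, at -1.63 ± 0.18 (SE; adjusted p = 3.44e-05). It read 4.23, 4.12 and 4.53 FPKM in irradiated CD24+ and 1.10, 0.449 and 0.651 FPKM in irradiated CD24- libraries, and passed as lower under all 5 scalings. Irak1 was lower, at -0.66 ± 0.25 (SE; adjusted p = 0.0401), but 0.52 higher, without passing, with TPM, and leaving out any of the irradiated CD24+ libraries, or CD24- replicate 2 or 3, ended its call (adjusted p = 0.0518 to 0.142).

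Of the 6 tested NOD partners and peptidoglycan proteins 3 were higher and 1 lower, beside 48.6% and 7.27% of all tested genes, and their median of 0.33 was below the 0.51 of all genes. Slc15a1 (PEPT1), the brush border transporter that also takes up bacterial di- and tripeptides, was 3.92 ± 0.42 (SE; adjusted p = 2.56e-05) higher in irradiated CD24- cells, and Xiap, a ubiquitin ligase of NOD signalling, 1.36 ± 0.19 (SE; adjusted p = 0.000162). Pglyrp1, a secreted bactericidal peptidoglycan-binding protein, was lower, at -1.09 ± 0.25 (SE; adjusted p = 0.00302). It read 277, 312 and 278 FPKM in irradiated CD24+ and 146, 142 and 119 FPKM in irradiated CD24- libraries. With TPM the difference of Pglyrp1 was 0.17 and did not pass (adjusted p = 0.591).

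Inflammasome genes were mostly higher. Of 13 tested, 12 were higher in irradiated CD24- than irradiated CD24+ cells and none lower, with a median of 1.40 against 0.51 for all genes, and 9 to 13 were higher and none lower under the other scalings. Nlrp1b and Nlrp9b, both among those higher, were under 1 FPKM in every CD24+ library. They were tested only because they are high in CD24- libraries. Il18, a cytokine precursor cut by inflammasomes, was 4.10 ± 0.47 (SE; adjusted p = 3.73e-05) and Gsdmd, the pore-forming protein gasdermin D, 3.88 ± 0.47 (SE; adjusted p = 5.95e-05) higher. Il18 read 11.5, 8.98 and 9.24 FPKM in irradiated CD24+ and 134, 221 and 214 FPKM in irradiated CD24- libraries. Of the 3 tested immunoglobulin transport genes all were higher, led by the neonatal Fc receptor Fcgrt at 3.45 ± 0.32 (SE) and Mal2, a protein of transcytosis, at 2.35 ± 0.23 (adjusted p = 1.25e-05 and 1.40e-05). With quantile normalization 2 of these 3 passed.

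NF-kB genes and their inhibitors were also higher where called with FPKM as deposited. Of 7 tested core genes 5 were higher, with Relb at 1.38 ± 0.20 (SE; adjusted p = 0.000166) and the kinase Chuk at 1.15 ± 0.24 (SE; adjusted p = 0.00173), but the role's median of 0.61 was close to that of all genes, and 2 passed with median-of-ratios scaling and 1 with quantile normalization. Of 11 tested inhibitors 8 were higher (48.6% of all tested genes were) and their median was 0.86 against 0.51 for all genes, with Tnip1 at 1.83 ± 0.28 (SE; adjusted p = 0.000234) and the deubiquitinase Tnfaip3 (A20) at 1.44 ± 0.18 (SE; adjusted p = 6.37e-05). With median-of-ratios scaling 6 inhibitors were higher and 1 lower, and with quantile normalization 5 and 2. Of 10 tested NF-kB-induced products 7 were higher, beside the same 48.6%, and their median was 1.22 against 0.51, with the NADPH oxidase partner Duoxa2 at 2.37 ± 0.52 (SE; adjusted p = 0.00244) and serum amyloid Saa1 at 2.03 ± 0.68 (SE; adjusted p = 0.0246). With median-of-ratios scaling 4 of these products were higher and 1 lower, and Saa1 did not pass with it or with quantile normalization. Saa1 read 1.08, 1.91 and 20.1 FPKM in irradiated CD24- libraries, so replicate 3 set most of its difference, which was 0.99 without that library (adjusted p = 0.00970). Against non-irradiated CD24+ cells the largest called product besides Duoxa2 was its partner Duox2, at 2.64 ± 0.47 (SE; adjusted p = 0.000496), and the kinase Irak4 was 2.23 ± 0.23 higher (SE; adjusted p = 1.92e-05).

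**Figure D5:**
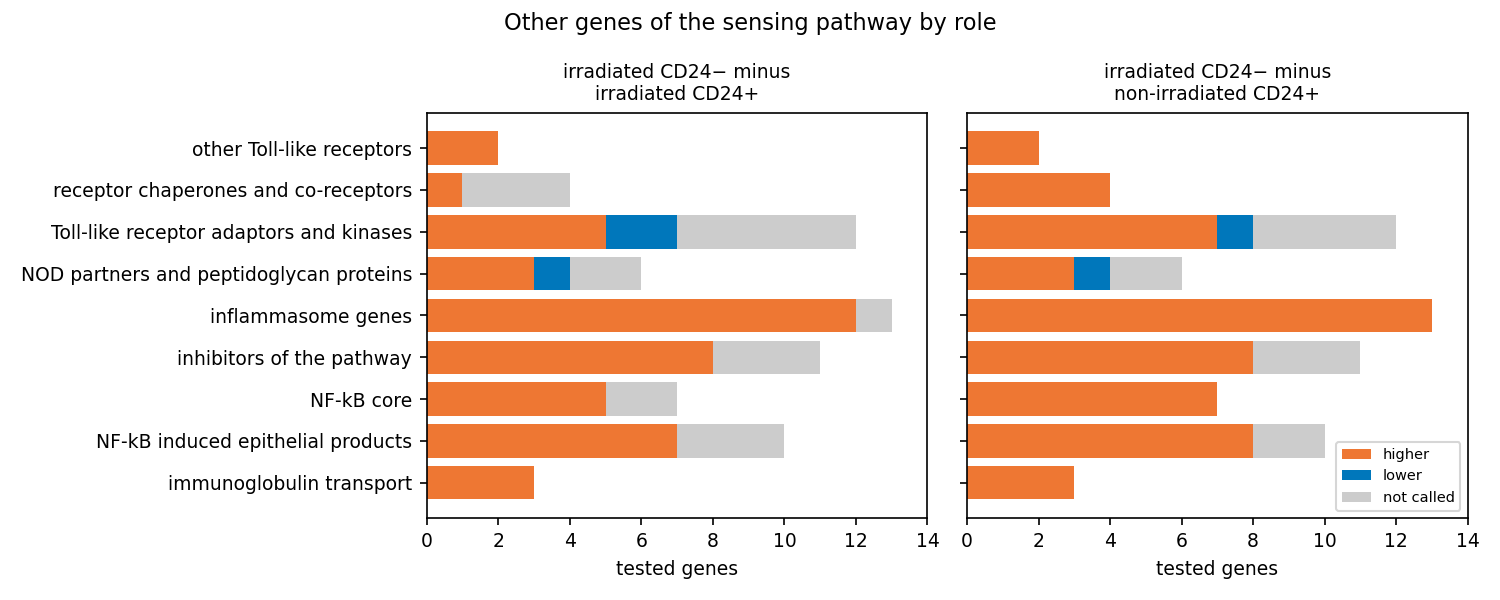
Number of tested genes in each of the 9 roles that were called higher, called lower or not called (bar sections, from 0) in irradiated CD24− cells against irradiated CD24+ cells (left) and against non-irradiated CD24+ cells (right). Inflammasome genes reach 12 of 13 and 13 of 13 higher, and blue sections for lower genes appear only among adaptors and kinases and among NOD partners and peptidoglycan proteins. Among the inflammasome genes, Nlrp1b and Nlrp9b passed the filter only through irradiated CD24− libraries.

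The genes whose pattern was most like that of Cd14 over the 8 libraries were sought among 6829 tested genes with a mean of at least 5 FPKM. By Pearson's r of log2(FPKM + 1) they were Ube2h (0.980), Mreg (0.965), Marcks (0.955), Elovl5 (0.950) and Sike1 (0.949). Mreg, the second, read 2.60 and 3.03 FPKM in non-irradiated CD24+, 6.78, 6.62 and 5.72 FPKM in irradiated CD24+ and 7.47, 6.31 and 5.68 FPKM in irradiated CD24- libraries. The genes most like Pigr were Lrba (0.998), Mif4gd (0.996), Ctdspl (0.995), Nr3c1 (0.994) and Acat1 (0.993), all highest in irradiated CD24- libraries. The points share libraries, depth and cell composition, and the best of 6829 genes is high by selection.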

How the data were processed

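Sorted cells were profiled by RNA sequencing in 8 libraries (2, 3 and 3 in the groups). The deposited table holds FPKM per gene, computed by the authors. TopHat2 2.1.0, StringTie 1.3.4 and mm9 are named in the submitters' processing notes, and the annotation is not given in the sources used here. Per the labels' protocols the libraries used TruSeq v2, whose reads keep no strand, so antisense or overlapping genes are not separated. Library sums ranged from 540467 to 1638350 FPKM.

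Rows of repeated symbols were summed (24015 to 24013). Genes at 1 FPKM or more in 2 libraries were fitted as log2(FPKM + 1) with limma 3.58.1 (R 4.3.3, all 8 libraries, mean-variance trend, Benjamini-Hochberg over 11190 genes, called at adjusted p under 0.05), after a test on simulated data. No label says that replicates were separate mice, so p-values measure the spread between these samples, which may be technical. Same-numbered irradiated libraries of the 2 gates had residuals correlated across genes (r = 0.366, 0.231 and 0.402), but no label gives a pairing. The main fit left them unpaired, so its p-values between the gates ignore this correlation. They were paired only in an alternative fit with the replicate number as a block over all 8 libraries. Other alternatives changed the pseudocount, filter, scaling, samples fitted and weights, and left out each library. Fragment numbers were approximated with GENCODE transcript lengths and are estimates. Promoters came from RefSeq; coordinates are GRCm38.p6, not the build of the values. Named genes were all 10 members and, per role, up to 2 called genes in each direction with the largest difference, no overlap and at least 1 FPKM in the higher group. The members, lists and rule were chosen with earlier results of these data known. Figures used matplotlib 3.10.9.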

Additional observations from a re-analysis of the deposited data

How the results depend on the processing

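Over 403 alternative values of the 8 tested genes, 344 kept direction and side of the threshold, 26 lost the call, 12 gained it and 21 changed sign. In irradiated against non-irradiated CD24+ cells, 1 gene was called with no filter, 3 with median-of-ratios scaling, 4 with quantile normalization, 5 with only the 2 groups fitted and 17 when these were also filtered alone (chosen after seeing the data); of the 8 genes, 1 (Cd14) passed in the last. Leaving out 1 library gave 0 to 5185 genes and 0 to 5 of the 8; the highest counts came without non-irradiated CD24+ replicate 2 and rest on a lone library assumed to vary like the others, and 10 genes were called without replicate 1. Replicate numbers of non-irradiated libraries share only a number with the others (r = 0.232 and -0.0499); with the replicate block 92 genes and 1 of the 8, Cd14, passed there (adjusted p = 0.00926). In the pairing of the irradiated gates the block changed only the call of Nod1.

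Between the irradiated gates TPM gave 10260 called genes, and turned Nod1 to 0.38 and Tlr2 to 0.44. Cd14 turned to -0.38 with median-of-ratios scaling, -0.39 with quantile normalization and -0.13 with array weights, and ran from -0.047 to 0.20 without 1 library. Against non-irradiated CD24+ cells the 8 genes gave 4 calls with a filter at 5 FPKM, which removed the other 4, and 3 with quantile normalization. There Nod1 turned to -0.56 with median-of-ratios scaling and -0.36 with quantile normalization, and ran from -0.090 to 0.14 without 1 library. In the CD24+ gate, median-of-ratios scaling and quantile normalization gave -0.20 and -0.16 for Ly96, -0.13 and -0.26 for Pigr and -0.23 and -0.24 for Tlr5. Without 1 library these ran from -0.13 to 0.50, -0.069 to 0.75 and -0.24 to 0.37, and Myd88 from -0.11 to 0.95. The cause of these changes was not tested, except that non-irradiated libraries number 2 and each sets the value left when the other is dropped. Depth limits Tlr4, with 5 to 41 fragments, and Nod2 less so, with 16 to 185.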
